A study of Mus musculus with 9 samples.

Results

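The bi population of Comma-1D, an immortalised mouse mammary epithelial line, was compared with the B population of the same line, in 3 arms. Both populations carry much Sca-1 on their surface, the protein of the gene Ly6a, and they were separated by EpCAM, an epithelial adhesion protein that is high on bi and low on B. The comparison uses 6 of the 9 bulk RNA-seq libraries of the study, chosen by their titles: bi and B, each from control cells, from cells transduced with an activated MYC oncogene and from cells transduced with an activated Her2 oncogene. The remaining 3 libraries are from the L population (Sca-1 low, EpCAM high), and they enter the estimate of the spread and serve as a reference. Each population and arm has 1 library, all from 1 cell line grown with EGF and insulin. The labels do not say whether the arms were separate cultures, what the control cells received or from which species the transgenes came, and RNA came from either of a pair of kits with no record of which library had which. The p-values therefore measure only the spread between these libraries. Values are CPM, read counts divided by the scaled total of their library, and are given in the order control, MYC, Her2. A gene was called when its bi to B difference, averaged over the arms, had an adjusted p under 0.05 (edgeR quasi-likelihood test, Benjamini-Hochberg adjustment over 23834 genes).

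The mammary epithelium is a bilayer of inner luminal cells, which express simple keratins and can make milk, and outer basal cells, which express Krt5, Krt14 and Trp63. Cells of an epithelium hold together through adherens junctions, tight junctions and desmosomes. In an epithelial to mesenchymal transition, factors of the ZEB and SNAI families bind E-box letters in the promoters of junction genes and repress them, while GRHL, OVOL and ESRP proteins favour the epithelial state.

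The transcripts followed the labels for EpCAM and for Sca-1. Epcam (chr17:87635979-87651129, GRCm38) was at 0.764, 0.183 and 0.307 CPM in B and at 336, 252 and 288 CPM in bi, and since EpCAM was used in the sort this is a check and no finding. Ly6a was at 57.8, 112 and 19.5 CPM in B, at 18.4, 140 and 15.9 CPM in bi and at 6.53, 12.8 and 2.37 CPM in L. The B and bi libraries overlapped in Ly6a, and each of them stood above all 3 L libraries. Esrp1 and Sostdc1, the other marker genes named for bi, separated bi from B completely. Esrp1 was at 0.124, 0.229 and 0.939 CPM in B and 156, 190 and 121 CPM in bi. In L it was at 202 CPM in each arm, above every bi library, and its bi to L difference (-0.36) was not called. Epcam was likewise high in L, at 408, 331 and 610 CPM. Over 7 epithelial markers the summed level ran from 2.19 to 6.3 CPM in B and from 702 to 1040 CPM in bi. This sum is no separate sign, since it holds the sort gene Epcam and the marker genes Esrp1 and Sostdc1. The basal markers Krt5, Krt14 and Trp63 were abundant in all 6 libraries, and none of these was called. They were at 569 to 1422, 758 to 1473 and 430 to 747 CPM in B and 1729 to 2312, 1285 to 2422 and 299 to 663 CPM in bi. In L they were abundant too, at 797 to 2150, 587 to 1130 and 121 to 357 CPM. The other basal or myoepithelial markers were lower and not called. Acta2 was at 15.5 to 262 CPM in B and 13.0 to 105 CPM in bi. Oxtr was at 0.573 to 15.7 CPM in B and 1.36 to 18.1 CPM in bi, and Myh11 at 0.0457 to 0.195 CPM and 0.195 to 0.245 CPM. Of 6 fibroblast markers, whose sum was 84.4 to 148 CPM in B and 22.4 to 37.9 CPM in bi, Pdgfra was the largest part in B. Dpt had no read in any library. Among 6 immune markers Cd68 alone reached 1 CPM, and Adgre1 had 1 read. In bulk RNA, fewer cells of a type and less RNA per cell cannot be told apart.

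Of the 23834 genes, 13.0% were called, 7.88% higher and 5.11% lower in bi. These shares are the reference for each list count below, and a single rise or fall in a list can lie near them. The direction held within each arm for 1863 of the 1877 genes called higher and for 1216 of the 1217 called lower. In 1594 and 947 of them the 3 bi libraries lay wholly above or below the 3 B libraries, against 14.5% and 10.7% of all genes tested that separated upward and downward. Neither is separate support, since the calls rest on the average over these same arms and on the spread between them. The rises were the larger changes. Their median log2 fold change was 2.11, 675 of them exceeded 8-fold, and 502 had a mean under 0.1 CPM in B. The falls had a median of -1.18, 29 exceeded 8-fold, and 21 had a mean under 0.1 CPM in bi. Among 15810 protein-coding genes 17.4% were called (1630 higher and 1120 lower), against 4.6% of 1581 lincRNA genes and 4.7% of 1490 antisense genes. The share over all genes is thus below that over protein-coding genes, which make up most of the gene lists below. In a principal component analysis of the 6 libraries the component with 56% of the variance separated the populations, with B at -52.2 to -99.7 and bi at 70.8 to 84.9. Totals ran from 46.9 to 98.9 M reads and were higher in bi than in B in each arm (98.9, 53.4 and 81.2 M against 54.0, 46.9 and 51.7 M), and the part of depth in the calls was not tested. Among the fits that left out a library or an arm, the count of calls fell furthest without the control bi library, to 1843, and also by over 1.5 times without B MYC (1887), the control arm (1955), the MYC arm (1963), bi MYC (1966), bi Her2 (2026) or B Her2 (2045), and 1179 genes were called in every such fit.

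**Figure D1:**
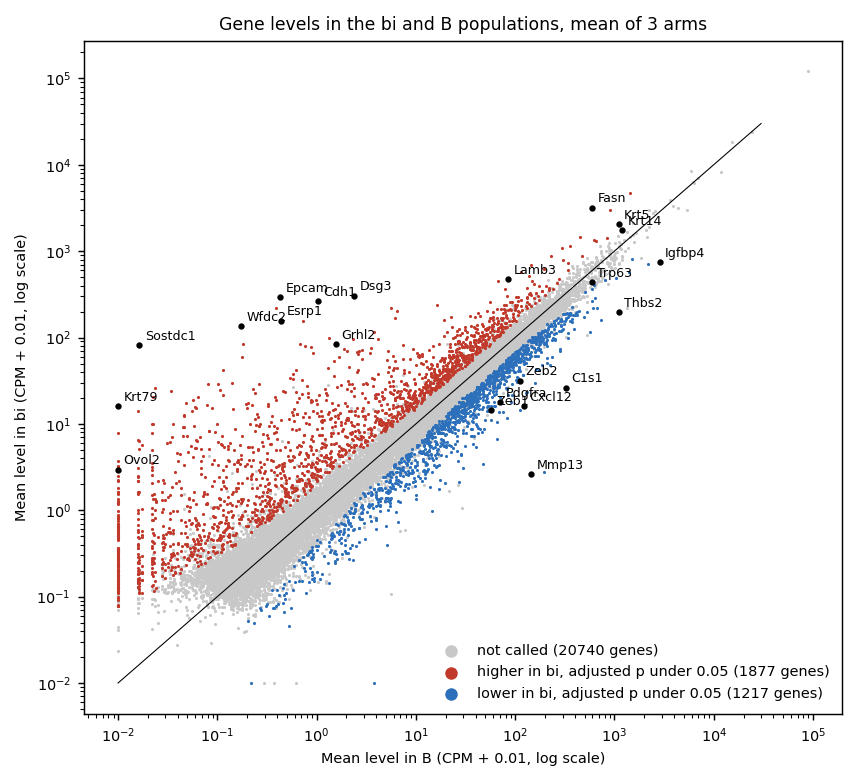
Mean level of each of the 23834 genes tested in B (horizontal axis) and bi (vertical axis), in CPM plus 0.01 on log scales, each a mean of 3 libraries. Red points are the 1877 genes called higher in bi, blue points the 1217 called lower and grey points the rest. The red points reach far to the left, where B holds almost no read, while the blue points lie closer to the diagonal.

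Junction genes rose in bi. The edgeR test called no fall in the 4 junction lists, with 1 fall each in the adherens, tight and gap junction lists at an unadjusted p under 0.05 and 1 each in the adherens and gap junction lists by DESeq2. In the list of adherens junction and polarity genes 11 of 19 tested members were higher and the median log2 fold change was 1.11, against 0.04 over all genes tested. In the tight junction list 12 of 17 rose (median 3.56), in the desmosome list 5 of 11 (0.80) and in the gap junction list 2 of 7 (1.93). Cdh1 (chr8:106603351-106670246), the E-cadherin gene, was at 2.02, 0.549 and 0.479 CPM in B and 265, 321 and 204 CPM in bi (log2 fold change 8.09, SE 0.59, adjusted p = 3.14e-05). No B library came near any bi library. Ap1m2, for the adaptor subunit that sorts proteins to the basolateral membrane, was at 0.0533, 0.0686 and 0.0383 CPM in B and 20.6, 26.4 and 15.1 CPM in bi (8.54, SE 0.36, adjusted p = 2.12e-06). Crb3, of the apical Crumbs complex, was at 0.0355, 0.114 and 0.0192 CPM against 5.98, 7.92 and 7.03 CPM (7.02, SE 0.59). Lsr and Ildr1 encode angulins, which recruit tricellulin to the corners where 3 cells meet. Lsr was at 0.746, 0.8 and 0.479 CPM in B and 97.9, 72.6 and 83.2 CPM in bi (6.96, SE 0.32, adjusted p = 2.43e-06). Ildr1 was at 0.106, 0.0686 and 0.0575 CPM against 15.4, 18.2 and 12.7 CPM (7.56, SE 0.31, adjusted p = 2.12e-06), and tricellulin's own gene Marveld2 rose by 6.56 (SE 0.79). In each of these genes the lowest bi library was far above the highest B library.

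Of the 7 tested claudin genes of the list, for the strands of the tight junction, 5 rose, and Cldn8 (2.52) and Cldn12 (-0.61) were not called. Cldn4 was at 0.124, 0.0229 and 0.0575 CPM in B and at 3.66, 42.1 and 4.21 CPM in bi (7.21, SE 0.99, adjusted p = 0.00148). Its MYC library in bi stood about an order of magnitude above the other bi libraries, and L reached 14.3, 77.1 and 86.6 CPM. Cldn3 (6.05), Cldn7 (4.61), Cldn1 (3.96) and Cldn23 (2.40) rose, as did occludin, Ocln (3.56), and the scaffold gene Tjp3 (4.28). The scaffold gene Tjp1 (-0.14) and the adhesion gene F11r (0.02) were not called. Among desmosomal cadherins Dsg3 (5.20, 1.07 and 0.901 CPM against 276, 468 and 169 CPM), Dsg2 (5.03, SE 0.41) and Dsc2 (6.07, SE 0.73) rose, and so did the cornified envelope plakins Ppl (4.42) and Evpl (3.46), whereas desmoplakin, Dsp (0.51), the plakophilins Pkp1 (0.18), Pkp2 (0.67) and Pkp3 (0.76), and Perp (-0.12) were not called. P-cadherin, Cdh3, had means of 184.8 CPM in B and 174.5 CPM in bi (-0.10, SE 0.21), and Ctnna1 (0.45) and Ctnnd1 (0.35), for cytoplasmic catenins, were not called either. Ctnnb1 (0.88) and Jup (0.80) were called, but each lost the call in at least 6 of the 12 fits that left out a library or an arm. In the gap junction list the connexin gene Gjc1 rose from 5.74, 4.62 and 7.09 CPM to 28.5, 18.0 and 20.1 CPM (1.93, SE 0.20, adjusted p = 0.000296). The other called connexin, Gjb6 (6.66), lost its call without the Her2 arm or any 1 of B control, B Her2, bi control and bi Her2, and the list's count ran from 1 to 4.

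The promoters of several of these genes hold the E-box letters that ZEB and SNAI factors bind. CAGGTG or its reverse complement CACCTG was searched on both strands, from 250 bases before to 50 bases after each start, in the RefSeq promoter table for GRCm38.p6. It was in 22% of the 13781 tested genes matched to the table, in 31.4% of the 1229 matched genes called higher in bi and in 18.8% of the 890 called lower. It was in 7 of the 9 matched adherens junction and polarity genes called higher and 8 of the 12 tested, in 7 of the 9 matched tight junction genes called higher and 8 of the 13 tested, and in 3 of 5 matched epithelial regulators called higher and 6 of the 11 tested. A match describes the letters and is neither a shown binding site nor a cause. The windows of 5 of the genes described above are printed 5′ to 3′ on the gene's strand, with the E-box letters of either orientation in capitals, because these junction genes were low in every B library and hold between 1 and 4 matches each. The windows are Ap1m2 at chr9:21312284-21312583 (minus strand), Crb3 at chr17:57061951-57062250 (plus strand), Lsr at chr7:30973420-30973719 (minus strand), Cldn4 at chr5:134946885-134947184 (minus strand) and Ildr1 at chr16:36693728-36694027 (plus strand).
Ap1m2: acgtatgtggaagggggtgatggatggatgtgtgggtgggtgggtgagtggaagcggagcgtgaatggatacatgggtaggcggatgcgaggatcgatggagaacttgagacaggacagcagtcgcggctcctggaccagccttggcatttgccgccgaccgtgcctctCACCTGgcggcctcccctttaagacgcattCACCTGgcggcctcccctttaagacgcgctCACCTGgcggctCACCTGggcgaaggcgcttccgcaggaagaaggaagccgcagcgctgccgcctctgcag
Crb3: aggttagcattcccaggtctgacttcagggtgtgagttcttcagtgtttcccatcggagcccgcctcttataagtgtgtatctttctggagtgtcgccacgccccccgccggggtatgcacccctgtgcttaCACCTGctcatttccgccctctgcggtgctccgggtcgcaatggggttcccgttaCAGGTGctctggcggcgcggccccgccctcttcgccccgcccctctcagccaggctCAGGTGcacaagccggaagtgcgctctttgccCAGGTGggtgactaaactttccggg
Lsr: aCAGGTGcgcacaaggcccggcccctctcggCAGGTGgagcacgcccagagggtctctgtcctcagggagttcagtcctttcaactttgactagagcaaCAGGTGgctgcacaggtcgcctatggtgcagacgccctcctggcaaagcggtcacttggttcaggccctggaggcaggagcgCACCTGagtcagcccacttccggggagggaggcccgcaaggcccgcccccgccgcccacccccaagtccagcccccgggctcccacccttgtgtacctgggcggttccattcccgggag
Cldn4: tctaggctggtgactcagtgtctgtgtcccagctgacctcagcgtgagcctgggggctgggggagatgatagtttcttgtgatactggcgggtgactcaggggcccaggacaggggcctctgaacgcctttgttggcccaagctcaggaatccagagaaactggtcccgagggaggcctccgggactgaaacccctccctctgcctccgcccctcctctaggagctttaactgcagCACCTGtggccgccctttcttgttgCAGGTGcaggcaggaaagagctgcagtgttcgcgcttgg
Ildr1: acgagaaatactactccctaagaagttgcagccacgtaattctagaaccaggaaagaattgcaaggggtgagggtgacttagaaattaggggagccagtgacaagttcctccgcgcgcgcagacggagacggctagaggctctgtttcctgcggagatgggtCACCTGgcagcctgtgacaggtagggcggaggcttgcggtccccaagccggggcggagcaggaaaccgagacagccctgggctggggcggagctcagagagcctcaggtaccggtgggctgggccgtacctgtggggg
In Ap1m2 the matches begin at -81, -51, -21 and -9 relative to the start site, and in Crb3 at -118, -63, -7 and 25. Those of Lsr begin at -249, -219, -151 and -69, those of Cldn4 at -14 and 11, and the match of Ildr1 at -88.

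Zeb1 and Zeb2, for factors that bind these letters, were lower in bi, and several factors of the epithelial state were higher. Snai2, of the SNAI family that binds the same letters, went the other way and was higher in bi, a call lost in several fits. Zeb1 was at 56.6, 55.0 and 61.1 CPM in B and at 15, 13.8 and 14.6 CPM in bi (log2 fold change -1.99, SE 0.25, adjusted p = 0.000856). Zeb2 was at 87.8, 139 and 109 CPM in B and at 31.3, 30.9 and 32.7 CPM in bi (-1.82, SE 0.24, adjusted p = 0.00104). The bi libraries were nearly equal to each other in both genes and did not overlap B. Zeb1 was lower still in L, at 3.0, 1.69 and 4.35 CPM, and differed between bi and L (2.33, SE 0.26, adjusted p = 0.0094, in a contrast where 0.751% of genes were called), whereas the bi to L difference of Zeb2 (0.97, SE 0.23, adjusted p = 0.13) was not called. The order of Zeb1 from high to low was B, bi, L. Of 13 EMT transcription factors tested 4 fell and 1 rose (median -0.98). The fall of Twist2 (-1.17) and the rise of Snai2 (1.57, from 15.3, 16.2 and 22.9 CPM to 66.1, 62.1 and 44.5 CPM) were each lost in several fits, Snai2 without the control or MYC arm, B control, B MYC or any 1 bi library, and Twist2 in 9 of 12 fits. Snai1 (-1.37), Twist1 (-0.73) and Prrx1 (-1.30) were not called.

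Of 21 epithelial regulators 10 rose and 1 fell (median 1.52). Grhl2 (chr15:37233036-37363569), of the grainyhead family, was at 1.49, 1.39 and 1.74 CPM in B and at 82.7, 110 and 56.5 CPM in bi (5.70, SE 0.27, adjusted p = 2.64e-06). Grhl1 (2.48) and Grhl3 (3.16) rose as well. Ehf, an ETS factor of epithelia, was at 6.04, 8.89 and 1.80 CPM in B and at 197, 378 and 76.3 CPM in bi (5.28, SE 0.19, adjusted p = 1.95e-06), and its ratio was nearly the same in every arm, 5.02, 5.41 and 5.38 on the log2 scale, although the levels differed between arms in both populations. Ovol2 had no read in the 3 B libraries and 2.92, 3.86 and 1.99 CPM in bi, which is at least 141-fold higher when a floor of 3 reads over the B libraries is used. Its relative Ovol1 (2.65), Elf3 (4.71), Tfcp2l1 (3.58) and the splicing factor Esrp2 (1.27) rose. Esrp1 and Esrp2 differed in size: Esrp2 was already at 19.5, 27.9 and 12.2 CPM in B, against 42.7, 66.7 and 33.7 CPM in bi. The fall was in Rbpms, an RNA-binding protein gene (-1.04, adjusted p = 0.0264), which was not called without the control arm, the Her2 arm, B Her2, bi control or bi Her2. Not called were Trp63 (-0.46), Klf5 (-0.30), Tfap2a (-0.74), Tfap2c (0.92) and the luminal factors Gata3 (-0.08), Foxa1 (2.90) and Elf5 (1.52).

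**Figure D2:**
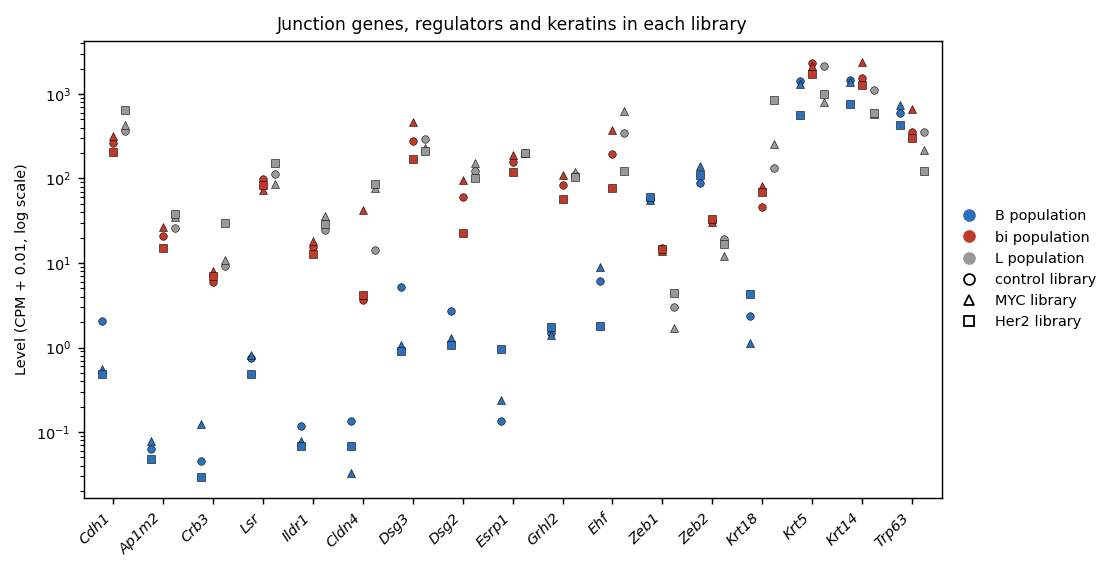
Level of junction, regulator and keratin genes in all 9 libraries, in CPM plus 0.01 on a log scale; blue is B, red is bi and grey is L, circles are control, triangles MYC and squares Her2 libraries. The junction genes and Esrp1, Grhl2 and Ehf lie in separate bands for B and bi with L beside bi, Zeb1 steps down from B through bi to L, and Krt5, Krt14 and Trp63 overlap.

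Simple keratins rose from very low levels, and some stratified keratins rose beside them. Krt18 was at 2.38, 1.12 and 4.28 CPM in B and 46.5, 80.6 and 68.3 CPM in bi (4.81, SE 0.52, adjusted p = 0.000362). Krt7 (4.72, SE 0.73) and Krt8 (4.59, SE 0.84) also rose, which makes 3 of 4 luminal keratins tested. Krt8 remained below its level in L, with 0.533, 3.31 and 0.951 CPM against 5.89, 20.9 and 31.0 CPM (bi minus L -3.66, SE 0.61, adjusted p = 0.033). Krt7 was also lower in bi than in L, with means of 14.7 and 280 CPM (-3.62, SE 0.68, adjusted p = 0.0498). Krt18 had means of 65.1 CPM in bi and 412 CPM in L, a difference (-2.26, SE 0.46, adjusted p = 0.075) that was not called. Of 9 basal and stress keratins 5 rose. Krt17, of stressed and appendage epithelia, was at 362, 178 and 141 CPM in B and 645, 1303 and 666 CPM in bi (2.01, SE 0.35, adjusted p = 0.0052). Krt79, known from the hair follicle, had no read in B and 25, 12.9 and 10.2 CPM in bi, at least 852-fold higher on the floor of 3 reads. The wound keratins Krt6a (2.02) and Krt6b (2.80) and Krt80 (1.70) were lost in some fits, each without B MYC, and the count ran from 3 to 6 with the smallest counts without B MYC, B Her2 or bi MYC. Krt6a and Krt6b are close copies, so the division of reads between them is uncertain.

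Of the genes for attachment to the basement membrane a minority rose. In the list of hemidesmosome, integrin and laminin genes 7 of 22 rose, with a median of -0.02. Lamb3, for a laminin beta chain, was at 78.9, 47.2 and 128 CPM in B and at 420, 525 and 480 CPM in bi (2.58, SE 0.28, adjusted p = 0.000374). Itgb6, which with the alpha-v integrin activates latent TGF-beta, rose by 4.47 (SE 0.52). Itga2 (2.31, SE 0.44) rose in each arm. The laminin alpha chain Lama3 (1.21) and the integrins Itgb4 (1.09) and Itgb8 (1.24) lost the call without B Her2, and Lama3 and Itgb4 also without single bi libraries, so that 4 remained without B Her2. Itga6 (0.22), Itgb1 (-0.65), Col17a1 (0.10) and Plec (0.00) were not called. Lad1, for the anchoring filament protein ladinin, was among the largest rises of abundant genes, from 8.97, 3.02 and 7.42 CPM to 219, 164 and 227 CPM (5.08, SE 0.30, adjusted p = 9.06e-06).

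Mesenchymal and stromal genes fell in part, and the intermediate filament and fibronectin genes did not pass the test. Of 15 mesenchymal genes 6 fell (median -0.89), and 0 rose by edgeR, by DESeq2 or at an unadjusted p under 0.05. Pdgfra, for the PDGF receptor alpha, was at 58.9, 102 and 52.2 CPM in B and at 11.8, 28.9 and 12.8 CPM in bi (-2.03, SE 0.25, adjusted p = 0.000722). Pdgfrb was at 12.6, 16.4 and 4.22 CPM against 4.03, 2.35 and 0.641 CPM (-2.35, SE 0.34, adjusted p = 0.00208). Neither gene overlapped between the populations. Cdh11 (-2.84), Fstl1 (-1.24), Tgfbi (-2.23) and Ncam1 (-1.14) fell, each with its call lost in at least 1 fit, Cdh11 without the control arm and Fstl1 without bi MYC. Vim (-0.37), Fn1 (-0.32), Cdh2 (0.09), S100a4 (-0.81), Axl (-1.09) and Cd44 (0.49) were not called. Of 8 tested fibroblast marker genes 3 fell (Pdgfra, Pdgfrb and Dcn), and 3 had a log2 fold change above 0. The fibroblast sum above was lower in each bi library than in any B library. It is no separate sign, since it holds these same 3 genes and Pdgfra was its largest part in every B library. Col1a1, also in the sum, was at 36.3, 4.73 and 2.37 CPM in B and 11.8, 4.46 and 6.43 CPM in bi. The part of fibroblast content in these falls was not tested. Of 12 smooth muscle and myoepithelial genes 0 were called by edgeR, by DESeq2 or at an unadjusted p under 0.05. Tpm1 had the smallest p (log2 fold change 0.50, adjusted p = 0.233), and Acta2 ranged from 15.5 to 262 CPM in B and from 13.0 to 105 CPM in bi.

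Matrix genes changed in both directions. Of 20 proteoglycan and matricellular genes 5 fell and 3 rose (median -0.74). Thbs2, for the matricellular thrombospondin-2, was at 1106, 1492 and 731 CPM in B and at 191, 307 and 91.7 CPM in bi (-2.55, SE 0.37, adjusted p = 0.002), with L at 46.4, 27.5 and 41.8 CPM. Fbln2, for fibulin-2, was at 546, 544 and 627 CPM in B and at 130, 113 and 108 CPM in bi (-2.29, SE 0.24, adjusted p = 0.000283), with L at 57.1, 27.8 and 55.0 CPM. In both genes bi lay between the other populations, and the bi to L differences passed the test too (Thbs2 2.17, adjusted p = 0.037; Fbln2 1.37, adjusted p = 0.035). Vcan, for versican, moved the other way, from 77.3, 40.2 and 50.6 CPM to 312, 104 and 351 CPM (2.04, SE 0.26, adjusted p = 0.000855), and so did Mgp, the matrix Gla protein gene (3.95, SE 0.73). Fbln5 (1.59) was lost without B MYC or B Her2, Fbn1 (-1.84) without the control arm, Fbln1 (-0.84) without the control or MYC arm, bi control or bi MYC, and Dcn (-2.88), which was at 1.23, 25 and 25.5 CPM in B, in 5 fits. The list's falls numbered 3 without the control arm or bi MYC and 8 without B Her2. Pcolce, for an enhancer of collagen processing, fell from 168, 283 and 215 CPM to 59.2, 60.3 and 24.4 CPM (-2.25, SE 0.34, adjusted p = 0.00242). Of 20 collagen genes 2 rose (Col14a1, 1.42, and Col15a1, 3.36) and 1 fell (Col5a2, -1.35), and all 3 were lost in at least 6 fits, including the one without the control arm. These collagen counts lie near the shares over all genes tested, 7.88% higher and 5.11% lower in bi.

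Membrane serine protease genes rose and several metalloproteinase genes fell. Of 25 proteases and inhibitors 9 rose and 8 fell. St14, for matriptase, was at 1.83, 1.42 and 1.36 CPM in B and 88.2, 101 and 64.6 CPM in bi (5.76, SE 0.27, adjusted p = 2.57e-06). Its inhibitor gene Spint1 (7.56, SE 0.60) and its partner protease Prss8 (5.05, SE 0.47) rose with it, and so did the kallikrein gene Klk10, from 0.852, 0.137 and 0.613 CPM to 18.2, 8.67 and 76.0 CPM (5.65, SE 0.64). Timp3, for the matrix-bound inhibitor, rose from 203, 75.5 and 65.2 CPM to 751, 622 and 368 CPM (2.45, SE 0.35), while Timp2 fell from 519, 723 and 672 CPM to 304, 258 and 293 CPM (-1.16, SE 0.20, adjusted p = 0.00487). Mmp19 fell by 2.39 on the log2 scale (SE 0.27, adjusted p = 0.000441) and Mmp11 by 1.60 (SE 0.34). The falls of Mmp12 and Mmp13 were largest in the control arm. B control held 561 and 388 CPM, against 7.71 to 24.9 CPM in the other B libraries and 1.89 to 3.47 CPM in bi, and the calls were lost without bi Her2 for Mmp13 and without bi control, bi MYC or L Her2 for Mmp12. Mmp3 (-2.26), Mmp9 (-1.74), Klk8 (3.87) and Spint2 (0.87) were lost in 3 to 10 fits, and the falls of the list numbered 4 or 5 without the control arm, B control, B MYC, L Her2 or any 1 bi library.

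Complement protease and monocyte chemokine genes fell, and genes of epithelial defence proteins rose. Of 13 complement genes 6 fell and 1 rose. The proteases of the C1 complex fell together: C1s1 was at 319, 557 and 104 CPM in B and 12.2, 60.8 and 5.73 CPM in bi, and C1ra at 80.9, 136 and 33.5 CPM against 9.11, 23 and 2.75 CPM (-3.09, SE 0.23, adjusted p = 3.34e-05). C1rl (-3.29), C1rb (-3.11) and C1s2 (-3.82) fell as well; C1ra and C1rb, and C1s1 and C1s2, are close copies whose reads cannot be divided with certainty. The remaining fall, C4b (-1.93), was lost in 10 of 12 fits. Cd55, for a protein that breaks up complement convertases, rose by 3.67 (SE 0.44, adjusted p = 0.000719). C3 (-0.32) and Cfb (0.04) were not called.

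Among 16 chemokine genes 5 fell and 3 rose. Cxcl12 was at 80.5, 251 and 39.0 CPM in B and at 20.4, 21.9 and 5.89 CPM in bi (-2.77, SE 0.29, adjusted p = 0.000295). Bi exceeded L in this gene (3.30, SE 0.30, adjusted p = 0.0081), where it was at 1.82, 2.26 and 0.704 CPM. The monocyte attractants Ccl2 (-2.21, SE 0.37) and Ccl7 (-3.44, SE 0.47) and the neutrophil attractant Cxcl1 (-1.51, SE 0.27) fell. Cxcl5 (-1.32) was lost without the control or MYC arm, B MYC, bi control or bi MYC. Cxcl14, of epithelia, rose from 0.266, 0.0686 and 0.0192 CPM to 4.46, 4.81 and 5.99 CPM (5.42, SE 0.69), and Cxcl16 from 28.9, 17.3 and 20.7 CPM to 95.1, 73.9 and 82.2 CPM (1.93, SE 0.21). Ccl20 (3.36) was lost without the Her2 arm or B Her2. Of 12 epithelial defence genes 6 rose and 1 fell. Wfdc18 was at 0.426, 0.0914 and 0 CPM in B and at 37.3, 200 and 11.6 CPM in bi (8.39, SE 0.74, adjusted p = 0.000103). Lcn2, for the iron-trapping lipocalin-2, was at 8.44, 34.4 and 14.4 CPM against 128, 316 and 32.3 CPM (2.80, SE 0.45, adjusted p = 0.00363), with the bi Her2 library below the B MYC library although each arm rose. S100a8 (3.05), S100a9 (7.20) and the peptidoglycan-binding Pglyrp1 (4.2) rose. The acute-phase gene Saa3 fell, from 16.0, 96.3 and 7.42 CPM to 2.69, 12.2 and 1.34 CPM (-2.70, SE 0.28, adjusted p = 0.000295).

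Of 16 antigen presentation genes 7 fell (median -0.69), and 0 rose by edgeR, by DESeq2 or at an unadjusted p under 0.05. The peptide transporter gene Tap2 was at 12.6, 27.3 and 14.6 CPM in B and 3.2, 11.6 and 2.51 CPM in bi (-1.91, SE 0.28, adjusted p = 0.00193). The immunoproteasome subunit Psmb8 (-2.12, SE 0.27), the class I transactivator Nlrc5 (-1.95, SE 0.37) and the class I heavy chain H2-D1 (-1.11, SE 0.21) fell. Tap1 (-1.24), Tapbp (-0.91) and H2-Q4 (-0.66) were lost without the control arm, bi control or bi MYC, where the count was lowest at 4. B2m (-0.59) and H2-K1 (-0.38) were not called, and reads of class I heavy chains are shared between near-identical copies. Outside the list, the class II chain gene H2-Ab1 was at 33.3, 31.7 and 14.9 CPM in B and at 3.01, 7.12 and 1.01 CPM in bi (-3.13, SE 0.35, adjusted p = 0.000419), while the class II invariant chain Cd74 stayed between 0.142 and 1.05 CPM in these libraries and was not called. The immune markers above were at or near 0 in both populations apart from Cd68, at 1.70 to 8.07 CPM in B and 2.35 to 5.56 CPM in bi.

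Genes of the secreted Wnt antagonists Sostdc1, Wif1 and Sfrp1 rose. Of 24 Wnt genes 6 rose and 1 fell (median 0.96). Sostdc1, which binds Wnt co-receptors and BMPs, had 0, 0 and 1 reads in B and 42.8, 184 and 18.4 CPM in bi, and it also exceeded L (2.37, SE 0.44, adjusted p = 0.049). Wif1 was at 0.106, 0.0229 and 0.0192 CPM in B and at 6.79, 38 and 2.00 CPM in bi (7.95, SE 0.81, adjusted p = 0.000249). Sfrp1 was at 60.2, 53.4 and 5.54 CPM against 146, 266 and 104 CPM (2.44, SE 0.49, adjusted p = 0.0101). The non-canonical ligand Wnt11 (4.76, SE 0.57) and the R-spondin receptor Lgr4 (1.22, SE 0.15) rose, and the R-spondin gene Rspo3 (6.82) was lost without B control or B MYC. The fall, in Dkk3 (-0.96), was lost without the MYC arm, B MYC, B Her2 or any 1 bi library. The feedback target Axin2 (0.70) and the ligands Wnt4 (-0.33), Wnt5a (-0.99) and Wnt10a (-0.06) were not called.

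In the list of 25 BMP and TGF-beta genes 11 rose and 5 fell (median 0.13). The ligand gene Bmp7 (chr2:172868012-172940321) was at 2.20, 1.35 and 0.958 CPM in B and at 36.8, 47.7 and 23.7 CPM in bi (4.61, SE 0.31, adjusted p = 2.23e-05), while Bmp4 fell (-2.05, SE 0.43), a call lost without the MYC arm or bi MYC. The antagonists divided. Noggin, Nog, rose from 0.16, 0.0457 and 0 CPM to 1.24, 1.42 and 1.97 CPM (4.38, SE 0.75), whereas gremlin, Grem1, fell from 17.6, 8.07 and 41.7 CPM to 4.2, 1.58 and 8.34 CPM (-2.25, SE 0.36, adjusted p = 0.00332) and chordin, Chrd, from 2.29, 3.50 and 3.45 CPM to 0.395, 0.65 and 0.332 CPM (-2.77, SE 0.33, adjusted p = 0.000658). Grem1 overlapped between the populations, bi Her2 being above B MYC, but its ratios within arms were close, at -2.06, -2.33 and -2.32. The target gene Id1 rose from 10.4, 9.81 and 14.5 CPM to 40.6, 89.1 and 52.9 CPM (2.46, SE 0.48), as did the pseudoreceptor Bambi (3.75, SE 0.33), and Id2 (1.10) and Id3 (2.03) were each lost in 6 fits. On the TGF-beta side the latent TGF-beta binding protein gene Ltbp2 (3.66, SE 0.57), Tgfb2 (1.59, SE 0.24) and the activin subunit Inhbb (1.70, SE 0.31) rose. Tgfbr3, for the co-receptor betaglycan, fell from 177, 412 and 254 CPM to 87.6, 99.8 and 32.7 CPM (-2.03, SE 0.35, adjusted p = 0.00507). Tgfbr2 (-1.23) was lost without B MYC or bi Her2. Smad6 (1.69) was lost without the MYC arm and Fst (2.53) without bi control or bi Her2.

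Over all genes tested 7.88% were called higher and 5.11% lower in bi, and the rises in the EGF and FGF lists lie near that share. Of 15 EGF family genes 2 rose. The adaptor gene Grb7 was at 0.0533, 0.0457 and 0.0383 CPM in B and at 14.4, 16.2 and 11.4 CPM in bi (8.21, SE 0.43, adjusted p = 4.44e-06), and the receptor gene Erbb3 at 2.65, 5.58 and 9.51 CPM against 36.6, 61.6 and 27.2 CPM (2.95, SE 0.39, adjusted p = 0.00116). Egfr (-0.25), Erbb2 (0.45) and the ligands were not called. Of 18 Eph receptors and ephrins 5 rose. Epha1 was at 6.0, 3.54 and 6.12 CPM against 40.0, 52.2 and 26.3 CPM (2.90, SE 0.30, adjusted p = 0.000295), Ephb1 had no read in B and 8.57, 5.60 and 9.49 CPM in bi, at least 419.7-fold higher on the floor, and the ligand Efnb2 rose by 2.74 (SE 0.54). The ephrins Efna2 (1.24) and Efna4 (0.75) were lost in 7 and 9 fits, and the list's count was 3 without the MYC arm, B control, B MYC or bi MYC and 7 without the Her2 arm. In the IGF list 4 of 11 fell and 2 rose. Igfbp4 (chr11:99041244-99054392), for a binding protein that holds IGFs, was at 1992, 3314 and 3266 CPM in B, 529, 833 and 882 CPM in bi and 92.8, 57.1 and 134 CPM in L (bi minus B -1.94, SE 0.29, adjusted p = 0.00236). Igfbp6 fell (-2.27, SE 0.43) and Igfbp5 rose (5.77, SE 0.81), while Igfbp2 (-1.74) was lost without bi MYC, and Igf1r (-0.72) and Igf2 (2.89) in 10 and 7 fits. In the Notch list Hey1 (3.30, SE 0.42, adjusted p = 0.000996) and Hes1 (1.14) were the rises of 12, the latter lost without the MYC or Her2 arm or any of the 4 B and bi libraries in them. The 3 calls among 13 FGF genes, Fgfr3 (1.41), Fgf10 (-2.03) and Fgfr1 (-0.71), were all lost without the MYC arm or B MYC.

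**Figure D3:**
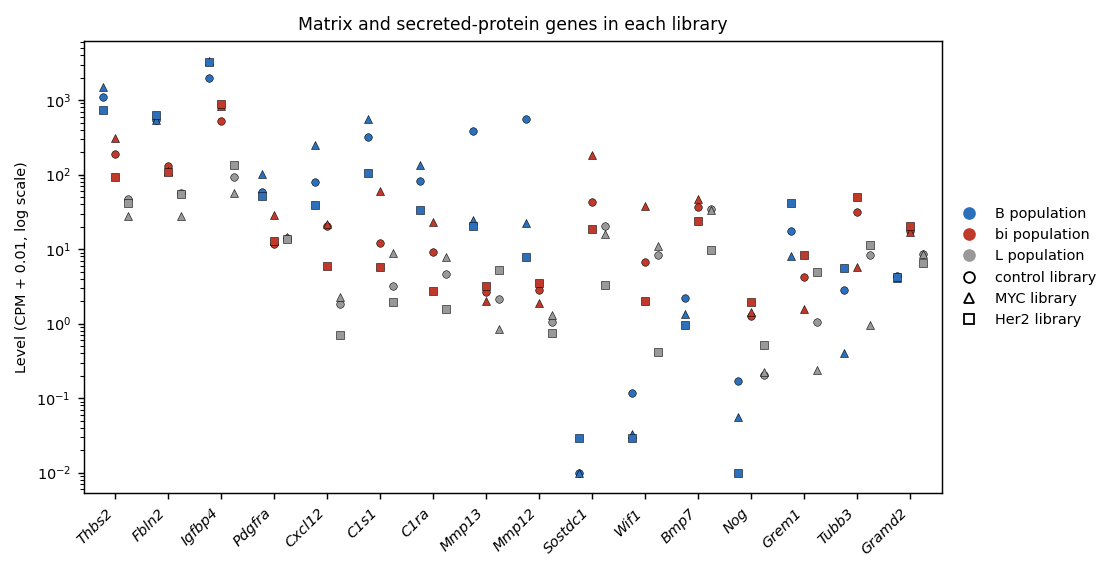
Level of matrix and secreted-protein genes in all 9 libraries, in CPM plus 0.01 on a log scale; blue is B, red is bi and grey is L, circles are control, triangles MYC and squares Her2 libraries. Thbs2, Fbln2, Igfbp4 and Cxcl12 step down from B through bi to L, Bmp7 and Wif1 are at their lowest in B, and the B control library stands apart in Mmp12 and Mmp13.

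Of 12 luminal progenitor and milk genes 5 rose, from low levels, and 1 fell (median 2.46). Aldh1a3 (1.74), the lactoferrin gene Ltf (4.25), the casein genes Csn1s1 (3.11) and Csn3 (-1.03), Itgb3 (0.46) and Cited1 (0.26) were not called. Cd14 was at 6.06, 4.92 and 3.76 CPM in B and at 23.7, 38.3 and 14.2 CPM in bi (2.22, SE 0.32, adjusted p = 0.00181). Prlr, the prolactin receptor gene, was at 1.14, 0.411 and 0.633 CPM against 12.3, 21.5 and 1.85 CPM (3.50, SE 0.60, adjusted p = 0.00478), lowest in the bi Her2 library. Prom1 rose from 0.622, 0.709 and 0.671 CPM to 2.58, 6.84 and 4.76 CPM (2.69, SE 0.33), and the progesterone receptor gene Pgr rose but stayed under 1 CPM in every bi library. Kit had no read in B and 0.139, 2.33 and 0.0229 CPM in bi, and its call was lost without B MYC. Esr1 fell from 8.17, 11.6 and 8.74 CPM to 5.18, 4.71 and 3.65 CPM (-1.08, SE 0.24), a call lost without the MYC or Her2 arm or any of their B and bi libraries. The rises of the list numbered 8 without the control arm or B control. Of 13 genes associated with mammary stem and basal cells 2 rose: Sox9 from 218, 104 and 75.1 CPM to 412, 397 and 307 CPM (1.57, SE 0.30, adjusted p = 0.0088), and the receptor gene Lgr6 (2.65), which was lost without B MYC, B Her2, bi MYC or bi Her2. The share called higher over all genes tested was 7.88%. Of the 4 adipocyte genes tested Lpl, the lipoprotein lipase gene, rose (1.86, SE 0.20) and Pparg (1.91) was called but lost in all 12 fits, while the 3 adipocyte markers were under 1 CPM in every library.

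Lipid synthesis genes rose. Fasn, for the fatty acid synthase, was at 835, 510 and 454 CPM in B and at 3281, 2835 and 3451 CPM in bi (2.44, SE 0.24, adjusted p = 0.000221), and the desaturase gene Scd2 at 1284, 767 and 632 CPM against 3018, 3312 and 2643 CPM (1.79, SE 0.24, adjusted p = 0.00129). The bi libraries resembled L in both, and their bi to L differences (0.24 and 0.10) were not called. Scd1 (1.57, SE 0.24) and the elongase gene Elovl7 (1.24, SE 0.20) rose, which with Acaca, Elovl6, Srebf1, Acsl3 and Acss2 made 9 of 16 fatty acid genes, with 0 lower by edgeR, by DESeq2 or at an unadjusted p under 0.05. Those 5 were lost without the MYC arm, leaving 4. Of 25 cholesterol genes 15 rose (median 1.0). Hmgcs1 was at 233, 194 and 92.6 CPM in B and at 394, 396 and 403 CPM in bi (1.27, SE 0.26, adjusted p = 0.0106), and Fdps, Fdft1, Mvd, Pmvk, Stard4 and Acat2 rose by 1.07 to 1.47. The levels of these genes were nearly constant over the bi libraries and lowest in the B Her2 library, and 7 genes kept the call in every fit; the count was 9 without B Her2, 7 without bi Her2 and 8 without bi MYC. The core letters of the sterol response element, TCACNCCAC or GTGGNGTGA, were in the promoter windows of 1 of the 11 matched cholesterol genes called higher and 1 of the 17 tested, and in 1.2% of all matched genes called higher against 1.3% of all matched genes tested.

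Of 37 G2/M genes 26 rose (median 0.92), and of 26 G1/S genes 12 rose (0.65), with 0 lower in either list by edgeR, by DESeq2 or at an unadjusted p under 0.05. Cdc20, for the activator of the anaphase-promoting complex, was at 56.1, 38 and 22.3 CPM in B and at 134, 68.5 and 108 CPM in bi (1.41, SE 0.27, adjusted p = 0.00891), and Kif23, for a kinesin of the midbody, at 48.3, 22.6 and 28.1 CPM against 112, 42.3 and 84.2 CPM (1.21, SE 0.24, adjusted p = 0.00974). Ccna2 (1.68), Birc5 (1.38) and the proliferation marker Mki67 (1.11) rose, and Tk1 (1.43, SE 0.17) and Uhrf1 (1.18, SE 0.20) were the G1/S genes that kept the call in every fit. In both populations the MYC library was below the control library in Cdc20, Kif23, Tk1 and Uhrf1, so that the populations overlapped in Kif23 and Uhrf1 although every arm rose. In 12 of the 37 G2/M genes and 1 of the 26 G1/S genes all 3 bi libraries lay above all 3 B libraries, against 14.5% of all genes tested. The G2/M count was 8 without the control arm, 10 without bi control, 12 without bi Her2, 13 without B Her2, 16 without B control and 17 without the Her2 arm. The G1/S count was 2 without the control arm, 4 without bi control, 6 without bi Her2 and 7 without B control or B MYC. Cdkn1a (1.87), lost without B MYC or B Her2, and Cdkn1c (-1.58), lost in 8 fits, were the calls among 10 cell cycle inhibitors and D cyclins. That is near the shares over all genes tested, 7.88% higher and 5.11% lower. The letters TTTGAA, known as the cell cycle homology region, or their reverse complement TTCAAA, were in the promoter windows of 14 of the 21 matched G2/M genes called higher, and of 22 of the 31 matched G2/M genes tested, called or not, against 16.4% of all matched genes tested. The letters were thus about as frequent in the list as in its called members. The windows of Cdc20 (chr4:118437294-118437593 (minus strand)) and Kif23 (chr9:61946750-61947049 (minus strand)) are shown because both genes kept their call in every fit, with these letters in capitals.
Cdc20: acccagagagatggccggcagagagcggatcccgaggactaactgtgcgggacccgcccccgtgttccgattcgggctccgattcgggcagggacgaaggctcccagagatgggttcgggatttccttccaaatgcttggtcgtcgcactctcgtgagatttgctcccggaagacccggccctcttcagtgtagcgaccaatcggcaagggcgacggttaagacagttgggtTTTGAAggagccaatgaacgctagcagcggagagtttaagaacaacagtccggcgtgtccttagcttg
Kif23: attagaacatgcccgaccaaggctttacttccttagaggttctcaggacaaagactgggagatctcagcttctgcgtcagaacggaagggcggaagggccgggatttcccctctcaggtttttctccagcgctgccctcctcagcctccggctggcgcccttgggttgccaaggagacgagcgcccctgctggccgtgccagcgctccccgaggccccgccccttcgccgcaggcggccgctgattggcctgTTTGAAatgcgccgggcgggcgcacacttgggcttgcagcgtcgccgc
The match lies at -18 in Cdc20 and at 2 in Kif23, on the gene's own strand in both. Of 18 hypoxia and glycolysis genes 5 fell, and 0 rose by edgeR, by DESeq2 or at an unadjusted p under 0.05. The pyruvate dehydrogenase kinase gene Pdk1 fell from 80.1, 118 and 80.1 CPM to 33.1, 68.9 and 33.4 CPM (-1.09, SE 0.19, adjusted p = 0.00563) and the mitophagy gene Bnip3 from 82.4, 149 and 107 CPM to 26.4, 69.4 and 28.6 CPM (-1.51, SE 0.27, adjusted p = 0.0058). The falls of Egln3 (-2.60), Slc2a1 (-1.66) and Ndufa4l2 (-4.73) were each lost in at least 1 fit without a bi library, bi Her2 in all 3, and the count was 3 without the control arm or B MYC and 2 without bi Her2. Ldha (0.45), Pgk1 (-0.46) and Vegfa (-0.41) were not called.

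Several abundant genes outside the lists separated the populations. Gpx2, for a glutathione peroxidase of epithelia, was at 0.852, 0.229 and 0.0575 CPM in B and at 248, 282 and 134 CPM in bi (9.31, SE 0.52, adjusted p = 6.98e-06). Trp53i11 was at 0.106, 0.0457 and 0.0575 CPM against 29.4, 32.4 and 25.6 CPM (8.63, SE 0.36, adjusted p = 2.12e-06), and Trim29 at 25.8, 11.5 and 11.6 CPM against 177, 391 and 150 CPM (3.85, SE 0.39, adjusted p = 0.000233). In the other direction Lgi2 fell from 576, 1221 and 410 CPM to 69.5, 375 and 37.1 CPM (-2.69, SE 0.37, adjusted p = 0.00156). Pdpn, for the membrane mucin podoplanin, was at 281, 228 and 340 CPM in B and 105, 47.3 and 57.1 CPM in bi (-2.03, SE 0.51, adjusted p = 0.0279), and its call was lost without B control, B MYC, bi MYC or bi Her2.

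Bi lay beyond both other populations in few genes. Under the rule that bi differ from B and from L in the same direction, 6 genes (0.0252%) were higher and 1 (0.0042%) lower. Tubb3 (chr8:123411424-123422015), for a tubulin best known from neurons, was at 2.82, 0.389 and 5.64 CPM in B, 31.6, 5.70 and 49.4 CPM in bi and 8.43, 0.939 and 11.3 CPM in L. Its difference was 3.47 from B (SE 0.24, adjusted p = 2.34e-05) and 2.20 from L (SE 0.22, adjusted p = 0.0081). In each arm bi was the highest, but the MYC libraries were low in all 3 populations. Gramd2 was at 4.32, 4.12 and 4.2 CPM in B, 17.4, 17.2 and 20.6 CPM in bi and 8.46, 8.70 and 6.59 CPM in L (2.13 from B, adjusted p = 0.000253, and 1.22 from L, adjusted p = 0.037), with almost no spread between arms. U90926 (4.02 from B and 1.64 from L), Sostdc1 and the predicted gene Gm35279 were also among the rises, and the mitochondrial carrier gene Slc25a23 was the fall (-1.14 and -1.17). The number of such genes depended on the libraries, with 1 without L MYC, bi MYC or bi Her2, 3 without L Her2, 4 without B MYC or the MYC arm and 12 without bi control.

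The size of the bi to B difference varied between arms for some called genes. Within an arm there is 1 library per population and hence no test. Steap4, for a metalloreductase, was at 9.57, 2.77 and 0.0383 CPM in B and at 70.0, 204 and 16.7 CPM in bi, which gives log2 ratios of 2.87, 6.19 and 7.94. The glucose transporter gene Slc5a1 had ratios of 4.79, 9.64 and 3.74, with 23.5 CPM in bi MYC and 28.6 CPM in L MYC. Igfbp5 had ratios of 3.12, 8.50 and 5.50, with 18.9 CPM in bi MYC and 104 CPM in L MYC. Gabrp (3.02, 8.86 and 2.5) and Klk14 (2.82, 8.64 and 4.31) also had their largest ratio in the MYC arm, but the call of Gabrp was lost without B MYC and that of Klk14 without B MYC, B Her2 or bi control. The B libraries held 6, 0 and 0 reads of Slc5a1, 11, 1 and 2 of Igfbp5, 10, 0 and 0 of Gabrp and 45, 0 and 1 of Klk14. Steap4 had 2 reads in B Her2. Where B holds so few reads, the size of the ratio depends on the prior count of 2. Of 9733 genes with at least 10 CPM in any of the 6 libraries, 49 had a log2 ratio over 1 in some arm and under -1 in another.

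**Figure D4:**
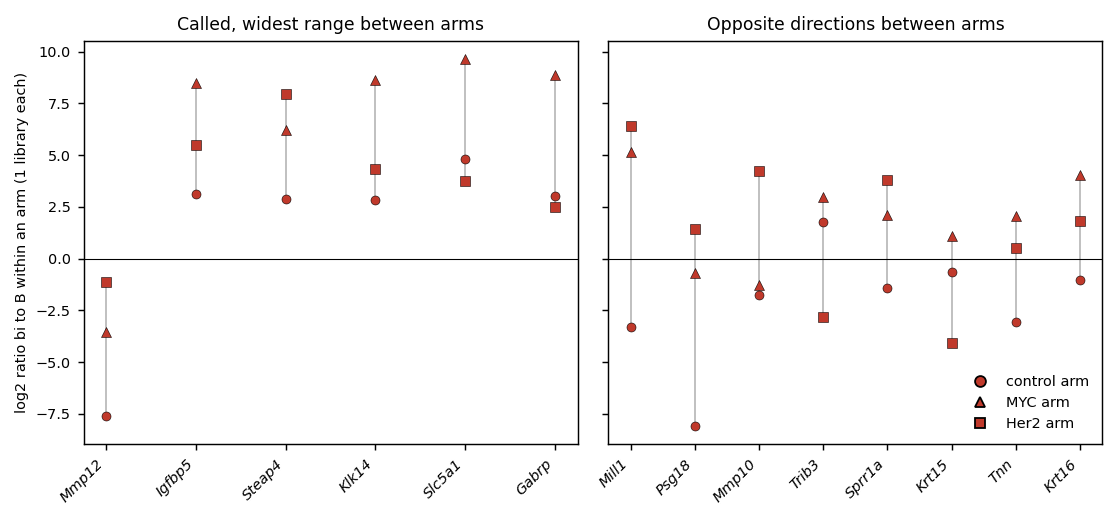
Log2 ratio of bi to B within each arm, 1 library against 1, for the 6 called genes with the widest range (left) and the 8 genes with opposite directions and the widest range (right); circles are the control, triangles the MYC and squares the Her2 arm, and the grey line spans the range. Among the called genes all ratios share a sign, from -1.14 to -7.61 in Mmp12 and above 2 in the rest, and on the right each gene crosses 0.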

How the data were processed

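Bulk RNA-seq of 9 libraries was analysed, 1 for each of 3 sorted Comma-1D populations in 3 arms. Per the file headers, each deposited file gives an estimated (expected) read count, a TPM value, a length and an effective length for each of 54281 genes. Per the submitters' processing notes the authors used Salmon 0.9.1 and mm10; the annotation release is not given in the sources used here. Per the labels, libraries were stranded and made with a ribosomal-RNA depletion kit, while the molecule label reads polyA RNA, and between 9.71% and 16.1% of each library's reads fell on ribosomal-RNA loci. Reads of near-identical genes are divided by Salmon's estimate.

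The deposited estimated counts were rounded to whole numbers and joined to symbols by Ensembl identifier (53544 with version, 563 without, 174 unmatched) and to coordinates of GENCODE on GRCm38. Genes were filtered with filterByExpr (minimum count 10, total 15), libraries were TMM-scaled, and edgeR 4.0.16 in R 4.3.3 fitted population plus arm over all 9 libraries with glmQLFit and glmQLFTest. The residual, with 4 degrees of freedom, holds the interaction of population with arm together with library noise. Within-arm log2 ratios use a prior count of 2 and have no test. Alternatives were DESeq2 1.42.0, limma 3.58.1 on log2 of the deposited TPM plus 1 or 0.1, other scalings and filters, the 6 B and bi libraries alone, no arm term, and each arm or library left out, which makes 12 fits. On simulated counts for bi against B, with 23834 genes, the test found 34 of 100 genes changed 2-fold and 100 of 100 changed 4-fold, with 11 false among 145 calls. The changed genes were drawn from those with a mean of at least 5 CPM. Counts were drawn from the fitted levels, with B and bi first set to their geometric mean in each arm. Apart from the changed genes, the simulation thus held no bi to B difference, unlike the data.

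The compared populations, the 37 gene lists and the motifs were chosen with earlier results of these data known. Genes are named by rule: the sort and marker genes; per list, up to 3 called members with the largest rise and fall and a mean of at least 1 CPM, or the smallest p; the 10 largest changes each way among called protein-coding genes of at least 20 CPM with 1 sign in all arms, and the 8 largest of at least 200 CPM; genes with the widest or opposite within-arm ratios at 10 CPM or more; and genes beyond both B and L of at least 5 CPM, leaving out predicted genes, clones and pseudogenes. Further list members are named to account for a count and were chosen after their values were seen, and some genes that the rule names are not reported here. Fold bounds for genes with no read in B use a floor of 3 reads over the group. Bounds cover counting error only. Promoter sequences are those of the RefSeq table for GRCm38.p6, in which 27025 genes have a row.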

Additional observations from a re-analysis of the deposited data

Results flagged for a closer look

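Of the 49 genes whose bi to B ratio was over 1 on the log2 scale in some arm and under -1 in another, the 8 with the widest range are given here. Each arm rests on 1 library per population, so the difference between arms was not tested. Mill1, for an MHC class I-like protein, had within-arm ratios of -3.32 in control, 5.15 with MYC and 6.42 with Her2, a range of 9.74. The B control library stood alone with 40.2 CPM against 0.137 and 0.0192 CPM in B MYC and B Her2, while bi held 4.0, 5.89 and 4.13 CPM. Psg18 had a range of 9.52, again with B control alone, at 16.6 CPM. Tnn had a range of 5.14, with 26.6 CPM in B control and at most 8.71 CPM elsewhere in B and bi. The B control library is also the one with the high Mmp12 and Mmp13 levels.

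Mmp10 had a range of 6.01, with ratios of -1.77, -1.25 and 4.24 and its highest level, 22 CPM, in bi Her2, followed by 15.4 CPM in L Her2. Trib3, a gene of the integrated stress response, had a range of 5.80, and B Her2 was the library apart, at 108 CPM against 4.03 and 4.05 CPM in the other B libraries. The keratin genes Krt15 and Krt16 had ranges of 5.21 and 5.07. Krt15 was at 2.98, 52.3 and 9.09 CPM in B and 1.88, 113 and 0.504 CPM in bi, and Krt16 at 60.0, 11.1 and 9.41 CPM against 29.2, 183 and 33.5 CPM. Sprr1a, of the cornified envelope, had a range of 5.21, with ratios of -1.43, 2.09 and 3.78.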

How the results depend on the processing

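None of the 135 called named genes changed direction under any alternative run; 71 kept the call under all of them and 103 of them stayed called whichever library or arm was dropped, where B MYC (21 calls lost) and bi Her2 (18) cost the most. Over the leave-one-out fits the count of genes differing between bi and B ran from 1843 to 3276, of those higher from 1251 to 1936, of those lower from 567 to 1523, and of those beyond both B and L from 1 to 12. With no replicate block, the arm being left out of the model, the counts were 1430, 1011 higher, 419 lower and 0 beyond both, and 1427 of the 1430 genes were among those called with the block. At an adjusted p under 0.01 they were 1339, 950, 389 and 1. With limma on log2(TPM + 1), 1099 genes were higher and 0 beyond both; 3 were beyond both on log2(TPM + 0.1), 57 with no low-count filter, 2 at a mean of at least 1 CPM and 53 by DESeq2. A pair of averages that were not called changed sign when a library or an arm was left out, Ly6a between -0.931 and 0.024 and Cd74 between -1.23 and 0.0375. Of 1702 list counts under alternatives 333 moved by over 1.5 times, and the cause of these moves was not tested. Depth limits what can be said of genes at a few reads in B, and simulated 2-fold changes were found in 34 of 100 cases.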
